A study of Mus musculus with 4 samples.

Results

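Monocytes of the mouse gingiva were taken from 4 single-cell RNA libraries by the transcripts they carried. A cell was counted as a monocyte where it held at least 3 UMIs of Lyz2, the lysozyme of myeloid cells, and at least 3 UMIs over the 5 monocyte genes F13a1, Ms4a6c, Ms4a4c, Ccr2 and Ly6c2. A UMI is a tag that counts 1 captured RNA molecule. The cell also had to stay under 3 UMIs of the complement genes C1qa, C1qb and C1qc, under 3 of Arg1, Spp1 and Gpnmb, under 10 of the granule genes Ltf, Ngp and Camp, and under 5 of the keratin genes Krt5 and Krt14. This gave 148 monocytes among 31150 kept cells.

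The mice carried the genotype labelled Itga9-Lyz2-cKO, a conditional knockout of Itga9, or Itga9-Lyz2-cHet, its heterozygous counterpart. Itga9 encodes the alpha9 chain of integrin alpha9 beta1, a receptor for matrix proteins and other ligands. The groups were cKO PD, cHet PD, cKO control and cHet control, with 1 library in each. PD stands for experimental periodontitis, brought on by a silk ligature at the maxillary second molar together with Porphyromonas gingivalis, and the gingiva was taken after 14 days. Both genotypes share the Lyz2 driver named in the labels. As background, that promoter is active in neutrophils and macrophages as well as in monocytes, so a Lyz2-driven deletion is not limited to monocytes. The labels give no age, sex, strain or number of animals per library, and do not say which exons of Itga9 were removed.

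Classical mouse monocytes carry high Ly6c2 on their surface, leave the bone marrow by way of the chemokine receptor Ccr2, and enter inflamed tissue. There they make cytokines, and can take on the transcripts of macrophages or of cells that present antigen on MHC class II. Nonclassical monocytes carry little Ly6c2 and patrol the vessel wall. In the gum, monocytes arriving during periodontitis are one source of the macrophages and osteoclasts found beside the tooth.

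The libraries held 6595 kept cells in cKO PD, 8967 in cHet PD, 7673 in cKO control and 7915 in cHet control. The lowest UMI total per deposited barcode was 500 in both PD libraries and higher in both control libraries, so the controls lack shallow cells. The monocytes had a median of 2640 UMIs in cKO PD, 3079 in cHet PD, 6950 in cKO control and 6522 in cHet control. Their summed depth was 271241, 157861, 82035 and 73908 UMIs in that order of groups. With 1 library per group there is no replicate, so no test between groups was possible and no p-value is given. All intervals below are exact 95% intervals for counting error only, and they hold neither the spread between mice nor the clumping of transcripts in single cells. No barcode was shared by monocytes of different libraries. Over all cells, pairs of libraries shared 62 to 86 barcodes, and at most 3 monocyte barcodes of a library recurred in another.

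The values that chose the cells are a description and were not tested. Ly6c2 was detected in 78 of 81 monocytes of cKO PD and in 32 of 47 of cHet PD. In the controls it was detected in 3 of 10 monocytes of cKO control and in 7 of 10 of cHet control. Ly6c2 was found in 0.844% of the fibroblast-like cells of cKO PD (median 3186 UMIs), against 96.3% of its monocytes. It was found in 0 of 314 fibroblast-like cells of cHet PD, which allows a share of up to 0.955%, against 68.1% of its monocytes. Fibroblast-like cells were chosen to hold no Ptprc, Lyz2 or Tyrobp UMIs. Their shares can therefore understate free RNA from myeloid cells, and the level of that background was not tested.

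F13a1, which encodes the catalytic chain of coagulation factor XIII, stood at 1777 CPM in cKO PD, 1349 CPM in cHet PD, 805 CPM in cKO control and 1908 CPM in cHet control. CPM is the count of the gene scaled to a library total of 1000000 UMIs, here over the monocytes of each library. Ly6c2 stood at 2865 CPM in cKO PD, 1698 CPM in cHet PD, 2328 CPM in cKO control and 1285 CPM in cHet control. In cKO control, 191 UMIs of Ly6c2 came from 3 cells, and 96 of them from 1 cell, so that level does not describe the other 7 cells.

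Ms4a6c, a membrane protein gene of monocytes, was the most even of these genes. It stood at 1136 CPM in cKO PD, 1159 CPM in cHet PD, 1499 CPM in cKO control and 1096 CPM in cHet control. Ccr2 stood at 630, 716, 317 and 568 CPM in the same order, and Lyz2 at 5025, 7994, 2499 and 7618 CPM. Vcan, which encodes the matrix proteoglycan versican and was not used by the rule, stood at 793, 602, 110 and 325 CPM, and was detected in 56 of 81, 24 of 47, 3 of 10 and 4 of 10 cells.

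The label "Ly6c2 and F13a1" therefore described nearly all monocytes of cKO PD, most of those of cHet PD and of cHet control, and a minority of those of cKO control by Ly6c2. A gate of at least 2 UMIs of the nonclassical monocyte genes Treml4, Ace, Cd300e, Spn and Adgre4 took 7 of 81 cells of cKO PD, 5 of 47 of cHet PD, 8 of 10 of cKO control and 1 of 10 of cHet control. Of the 8 such cells of cKO control, 6 held no Ly6c2. Adgre4, a receptor of nonclassical monocytes, stood at 0 CPM in cKO PD, 38.0 CPM in cHet PD, 402 CPM in cKO control and 67.7 CPM in cHet control. With cells thinned to an equal UMI total, the nonclassical gate took 0 of 75 cells of cKO PD and 3 of 43 of cHet PD. It then took 4 of 10 cells of cKO control and 0 of 10 of cHet control. Most of the 10 cells of cKO control thus fell in the nonclassical gate before thinning only, and 3 of the 10 held Ly6c2. In cKO control a list of 14 nonclassical genes summed to 4474 CPM, and a list of 30 classical genes to 17724 CPM.

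Cells at the edge of the rule were few. Of the cells at exactly 3 UMIs of the 5 monocyte genes, just inside, 6 were in cKO PD and 2 in cHet PD, with 0 in cKO control and 1 in cHet control. At 2 UMIs, just outside, stood 8 cells in cKO PD, 7 in cHet PD and 0 in either control. The monocytes held a median of 19 UMIs of the 5 genes in cKO PD, 13 in cHet PD, 15.5 in cKO control and 37 in cHet control.

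Monocytes made up 1.23% of kept cells in cKO PD (81 of 6595, interval 0.977% to 1.52%) and 0.524% in cHet PD (47 of 8967, 0.385% to 0.696%). They made up 0.130% in cKO control (10 of 7673, 0.0625% to 0.240%) and 0.126% in cHet control (10 of 7915, 0.0606% to 0.232%). The cKO PD share was 2.34 times that of cHet PD, with an interval of 1.62 to 3.43. It was 9.42 times that of cKO control (4.87 to 20.4), and the cHet PD share was 4.15 times that of cHet control (2.07 to 9.21). The controls stood at 1.03 times each other, cKO over cHet, with an interval of 0.385 to 2.76 that leaves room for a wide range of differences.

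**Figure D1:**
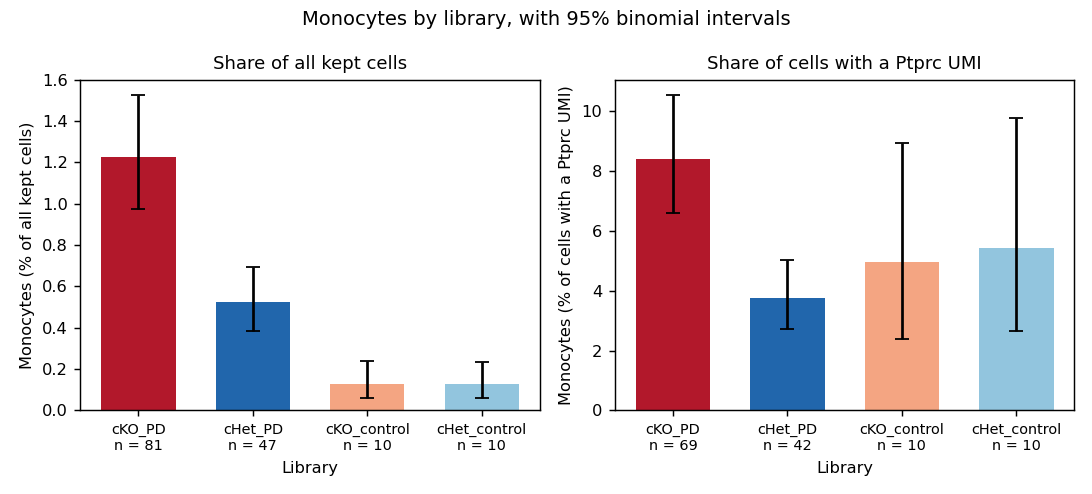
Monocytes as a percent of all kept cells (left) and, for those with a Ptprc UMI, of all cells with a Ptprc UMI (right), in cKO PD, cHet PD, cKO control and cHet control, with exact 95% binomial intervals for counting error. Of kept cells the cKO PD share of 1.23% lies above the cHet PD share of 0.524% and the control shares of 0.130% and 0.126%, and of Ptprc cells the intervals of both controls overlap those of both PD libraries.

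Of the monocytes, 69 of 81 in cKO PD, 42 of 47 in cHet PD and all 10 in each control held a UMI of Ptprc, the common leukocyte gene. Among all cells with a Ptprc UMI these were 8.404% in cKO PD (69 of 821, interval 6.60% to 10.52%), 3.75% in cHet PD (42 of 1120, 2.72% to 5.04%), 4.95% in cKO control (10 of 202, 2.40% to 8.92%) and 5.43% in cHet control (10 of 184, 2.64% to 9.77%). On that base the log2 ratio was 1.16 for cKO PD over cHet PD. It was -0.54 for cHet PD over cHet control (ratio interval 0.341 to 1.54) and 0.76 for cKO PD over cKO control (0.870 to 3.70), so the rise of the share in PD within a genotype was not seen beyond counting error among Ptprc cells. Shares were set by the cells the tissue digestion released, so more monocytes and fewer other cells cannot be told apart.

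The caps in the rule bore on the difference between genotypes. Without the cap on C1q genes the monocyte share became 1.30% in cKO PD and 0.937% in cHet PD, a log2 ratio of 0.48. Without the cap on Ltf, Ngp and Camp it became 4.14% in cKO PD (273 cells) and 0.680% in cHet PD (61 cells), a log2 ratio of 2.61. Counted before the other caps, 229 cells of cKO PD and 17 of cHet PD met both monocyte conditions but exceeded that cap. The cHet PD library thus held more cells with both monocyte and C1q transcripts, and the cKO PD library more cells with both monocyte and neutrophil granule transcripts, than the shares inside the rule show.

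Itga9, at chr9:118606690-118901003 on the plus strand of mm10, is the gene named in the genotype. The monocytes held 0 UMIs of it in cKO PD, 0 in cHet PD, 1 in cKO control and 0 in cHet control. A count of 0 allows up to 11.1 CPM in cKO PD, 19.0 CPM in cHet PD and 40.6 CPM in cHet control, taking 3 counts as the limit. The single UMI of cKO control equals 12.2 CPM. At this depth Itga9 in monocytes was at or near 0 in all 4 libraries, with its single UMI in cKO control, and its level gives no check of the genotype labels. The libraries were tagged at the 3′ end, and a tag outside the deleted part checks nothing.

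In the C1q macrophages of the same libraries, the cells with at least 3 C1q UMIs, Itga9 stood at 153 CPM in cKO PD, 92 CPM in cHet PD, 60 CPM in cKO control and 149 CPM in cHet control. These values come from 14, 51, 35 and 31 cells in the same order. With so few cells they do not rank the libraries, and the part of free RNA in them was not tested. The alpha9 chain pairs with the beta1 chain, whose gene Itgb1 stood in monocytes at 192 CPM in cKO PD, 260 CPM in cHet PD, 366 CPM in cKO control and 365 CPM in cHet control. Of 13 integrin and integrin-adaptor genes with enough UMIs, 0 were at least 2-fold apart between the PD libraries by the rule given next, and the list's median log2 fold was -0.10. Itgav, which encodes the alphaV chain, differed most among them, at 125 CPM in cKO PD and 234 CPM in cHet PD, a ratio of 0.535 with an interval of 0.326 to 0.876. A gene without a call is not shown to be alike in the PD libraries.

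The PD libraries, with 81 and 47 monocytes, were compared gene by gene. Of 3365 genes with at least 20 UMIs over both, 164 were called at least 2-fold higher in cKO PD, or 4.87%, and 177 at least 2-fold lower, or 5.26%. A call needed a 2-fold difference with 10 CPM added to each side and a counting interval that excludes 1, and genes used by the rule were left out. These calls compare 2 libraries and not the genotypes. The median log2 fold of all genes was 0.09, and all log2 folds here are cKO PD over cHet PD with 10 CPM added.

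MHC class II genes had the largest folds among the 12 genes named as lower. The class II molecule is a pair of chains that carries peptides to CD4 T cells, and the Cd74 chain holds its groove until a peptide is loaded. H2-Eb1, a beta chain gene, stood at 14.7 CPM in cKO PD, 1102 CPM in cHet PD, 1304 CPM in cKO control and 3328 CPM in cHet control. H2-Ab1, another beta chain gene, stood at 51.6 CPM in cKO PD, 2154 CPM in cHet PD, 1682 CPM in cKO control and 4411 CPM in cHet control. The cKO PD library was the low one for both, and the other 3 libraries lay above 1000 CPM.

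H2-Aa, the alpha chain gene, stood at 66.4 CPM in cKO PD, 2306 CPM in cHet PD, 2548 CPM in cKO control and 5209 CPM in cHet control. Cd74 stood at 66.4 CPM in cKO PD, 1881 CPM in cHet PD, 1682 CPM in cKO control and 3572 CPM in cHet control. Between the PD libraries H2-Eb1 was 74.7-fold lower in cKO PD (interval 28.7 to 277) and H2-Ab1 41.7-fold lower (24.5 to 77.1). H2-Aa was 34.7-fold lower (21.7 to 59.3) and Cd74 28.4-fold lower (17.6 to 48.5). Of 8 genes of the class II presentation list these 4 were called lower and 0 were higher, beside 5.26% and 4.87% of all genes. The median log2 fold was -2.79. H2-Aa was found in 0.844% of fibroblast-like cells of cKO PD and 1.27% of those of cHet PD, against 4.94% and 38.3% of the monocytes. Since fibroblast-like cells were chosen without Lyz2, Ptprc and Tyrobp UMIs, these shares can understate free RNA from myeloid cells.

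The PD libraries differed in how many cells carried the genes, and also in how much the gated cells held. A gate of at least 10 UMIs over H2-Aa, H2-Ab1, H2-Eb1 and Cd74 took 2 of 81 monocytes of cKO PD, 17 of 47 of cHet PD, 3 of 10 of cKO control and 3 of 10 of cHet control. The shares were 2.47% in cKO PD and 36.2% in cHet PD. With each cell thinned to 1000 UMIs the gate took 1 of 75 in cKO PD and 13 of 43 in cHet PD, which is the same order. Few cells lay near the threshold: in cHet PD the 17 cells inside held 15 to 227 UMIs and the 30 outside held at most 2, with 24 of them at 0. The 2 cells inside in cKO PD held 13 and 23 UMIs, a median of 18 against 45 in cHet PD. Among all other cells of the libraries the gate took 0.583% in cKO PD, 1.93% in cHet PD, 1.34% in cKO control and 0.746% in cHet control.

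**Figure D2:**
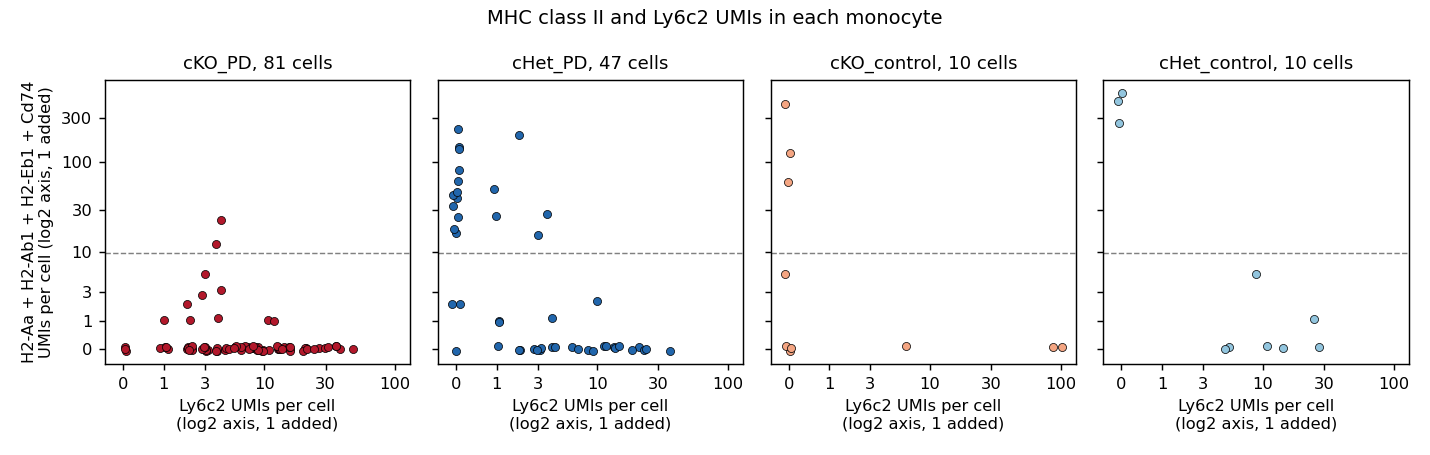
Each point is 1 monocyte, with its UMIs of Ly6c2 on the x axis and its summed UMIs of H2-Aa, H2-Ab1, H2-Eb1 and Cd74 on the y axis, in a panel per library. In cHet PD the 17 cells above 10 UMIs of the MHC class II genes hold at most 4 UMIs of Ly6c2, while cKO PD has 2 such cells among 81.

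These cells were poor in Ly6c2. Of the 17 in cHet PD, 12 held no Ly6c2 and the others at most 4 UMIs, while the 30 cells outside the gate held a median of 5. The 3 gated cells of each control library held 0 UMIs of Ly6c2. Inside against outside the gate in cHet PD, Ly6c2 stood at 168 against 2780 CPM, and Fn1, the gene of fibronectin, at 489 against 2531 CPM. Csf1r, the receptor of the macrophage growth factor, stood at 1055 against 476 CPM, Itgax, which encodes CD11c, at 214 against 21.6 CPM, and Ms4a7, a macrophage membrane gene, at 290 against 0 CPM. Ccr2 was at 826 against 638 CPM. The gated monocytes of cHet PD thus carried Ccr2 with transcripts usual in macrophages and little of those of Ly6c2-high monocytes, and these values are a description of cells split by their own genes. Markers of C1q macrophages, like the class II genes, were lower in cKO PD than in cHet PD. The list summed to 324 CPM in cKO PD, 792 CPM in cHet PD, 695 CPM in cKO control and 419 CPM in cHet control, under the cap that the rule puts on C1q genes. In the controls it did not follow the class II list, which was highest in cHet control at 18063 CPM. Of its 4 genes with enough UMIs 3 were at least 2-fold lower in cKO PD, beside 5.26% of all genes. Their part in the result was not tested.

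The promoters of H2-Aa and H2-Eb1 are shown because both genes were low in the same library and both windows hold the paired boxes for which class II promoters are known. The proteins RFX and NF-Y bind such X and Y boxes, and the co-activator CIITA joins them. The sequences are from RefSeq on GRCm38.p6 and run 5′ to 3′ on the gene's strand, from 250 bases before the start of the gene to 50 bases after it. Capitals mark the X box, searched as CTNGCAAC, and the Y box, searched as CTGATTGG, on both strands. H2-Aa covers chr17:34287774-34288073 on the minus strand and H2-Eb1 chr17:34305617-34305916 on the plus strand.
H2-Aa: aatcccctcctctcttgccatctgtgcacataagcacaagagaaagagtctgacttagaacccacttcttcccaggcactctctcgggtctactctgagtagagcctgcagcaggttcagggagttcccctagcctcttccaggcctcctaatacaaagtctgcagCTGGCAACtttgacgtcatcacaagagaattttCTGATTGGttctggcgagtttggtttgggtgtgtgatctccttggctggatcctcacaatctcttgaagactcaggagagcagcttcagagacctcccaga
H2-Eb1: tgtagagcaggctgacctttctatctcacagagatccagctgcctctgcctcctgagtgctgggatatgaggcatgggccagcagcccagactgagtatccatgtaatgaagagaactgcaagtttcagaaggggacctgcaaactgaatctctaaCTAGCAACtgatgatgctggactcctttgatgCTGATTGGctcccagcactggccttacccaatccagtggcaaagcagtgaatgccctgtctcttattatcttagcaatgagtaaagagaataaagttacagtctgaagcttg

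In H2-Aa the X box begins 84 bases and the Y box 51 bases before the start, with 25 bases between them. In H2-Eb1 they begin 94 and 62 bases before the start, with 24 bases between them. The letters of the X box were set after these promoters had been read. Of 32851 mouse promoter windows of this length, 3.42% held the X box letters, 4.10% the Y box letters and 0.180% both. The boxes do not overlap, and a match of letters is a description and not a binding site.

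Because 17 of the 47 monocytes of cHet PD fell in the MHC class II gate, the comparison was also made without gated cells, which left 79 monocytes in cKO PD and 30 in cHet PD. Then 155 of 2937 genes were at least 2-fold higher in cKO PD (5.28%) and 121 at least 2-fold lower (4.12%). Of these, 84 higher and 74 lower genes were also called over all monocytes. The Ly6c2-high genes stood close together in these cells, with log2 folds of 0.05 for Ly6c2, 0.15 for Fn1 and -0.16 for F13a1. H2-Aa and Cd74, which made the gate, came to 0.03 and 0.19, and H2-Eb1 was at 0 UMIs in both libraries.

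**Figure D3:**
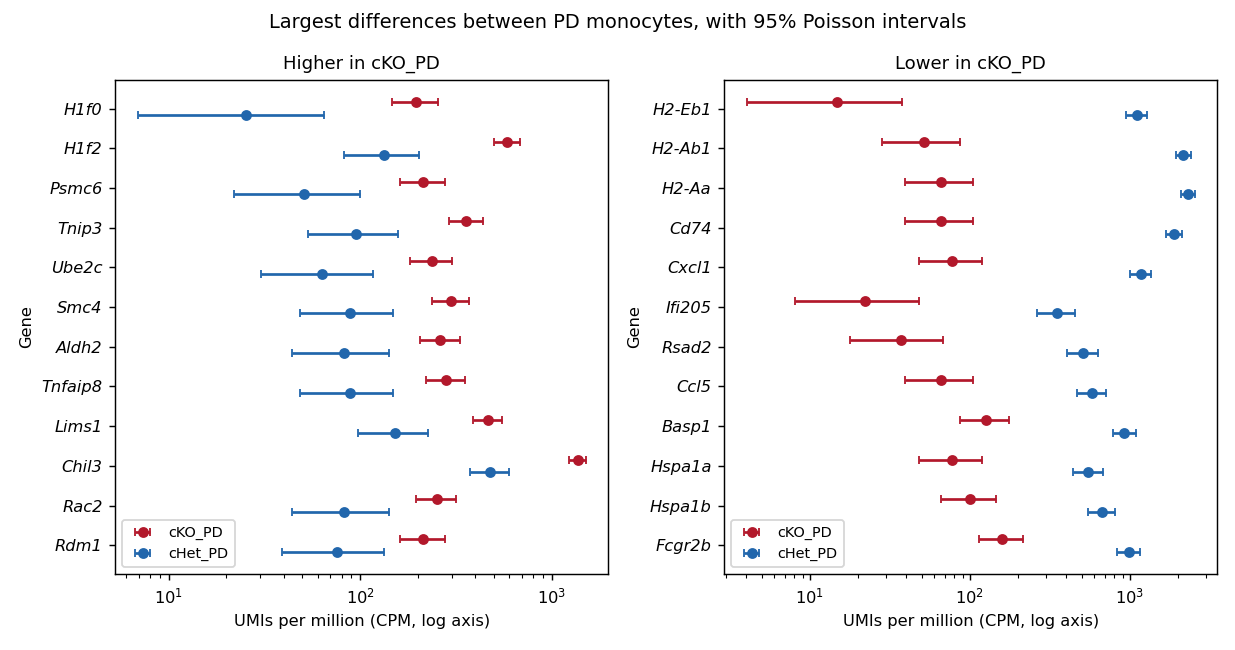
CPM on a log axis of the 12 named genes that were higher (left) and the 12 that were lower (right) in monocytes of cKO PD (red) than of cHet PD (blue), with exact 95% Poisson intervals for counting error. H2-Eb1 lies at 14.7 CPM in cKO PD and 1102 CPM in cHet PD, the widest gap, and the gaps on the higher side are smaller, with H1f0 at 195 and 25.3 CPM.

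Cytokine and chemokine transcripts were lower in cKO PD. Of 25 genes of this list with enough UMIs, 15 were at least 2-fold lower and 0 at least 2-fold higher, and the median log2 fold was -1.14. Of all genes 5.26% were lower and 4.87% higher. Without the MHC class II gated cells 12 of 24 were lower and 0 higher, with a median of -1.12. That stands beside 4.12% and 5.28% of all genes. Summed over the list, the level was 17973 CPM in cKO PD, 37919 CPM in cHet PD, 12885 CPM in cKO control and 7428 CPM in cHet control.

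Cxcl2, which draws neutrophils by the receptor Cxcr2, was among the most abundant of them. It stood at 4354 CPM in cKO PD, 13518 CPM in cHet PD, 3389 CPM in cKO control and 1299 CPM in cHet control, and at 4344 against 16409 CPM in the PD libraries without gated cells. Tnf, which encodes tumor necrosis factor, stood at 170 CPM in cKO PD, 798 CPM in cHet PD, 780 CPM in cKO control and 244 CPM in cHet control. In both genes cHet PD was the highest library, and for Tnf cKO control was near it.

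Il10, the gene of an anti-inflammatory cytokine, stood at 206 CPM in cKO PD, 824 CPM in cHet PD, 244 CPM in cKO control and 0 CPM in cHet control. Ptgs2, whose enzyme makes prostaglandins, stood at 1217 CPM in cKO PD, 3706 CPM in cHet PD, 1512 CPM in cKO control and 446 CPM in cHet control. Without gated cells the log2 folds were -2.06 for Tnf, -1.57 for Il10 and -1.47 for Ptgs2. Pro-inflammatory and anti-inflammatory genes of the list were thus lower together.

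Other cytokine genes were not called. Il1b, the gene of interleukin 1 beta, stood at 5169 CPM in cKO PD, 5188 CPM in cHet PD, 2462 CPM in cKO control and 920 CPM in cHet control, a log2 fold of -0.01 between the PD libraries. Il1rn, which encodes the antagonist of its receptor, stood at 1294 CPM in cKO PD and 2483 CPM in cHet PD. Il6 was at 203 CPM in cKO PD and 127 CPM in cHet PD, a log2 fold of 0.64 that was not called.

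Some large folds of the list rested on few cells. Cxcl1 was 15.1-fold lower in cKO PD (77.4 against 1166 CPM, interval 9.56 to 24.9), but 10 of 47 cells of cHet PD held it and 1 of them held 43.5% of its UMIs. Fibroblast-like cells also carried Cxcl1, at 921 CPM in cKO PD and 4087 CPM in cHet PD, and the part of free RNA in the monocyte values was not tested. Ccl5, the gene of a chemokine for T cells and monocytes, was 8.69-fold lower (66.4 against 576 CPM, 5.20 to 15.3). Without the gated cells it stood at a log2 fold of -0.62 with an interval of the ratio of 0.256 to 1.58, so its call rested on them.

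Interferon response genes were lower in cKO PD as well. Of 13 with enough UMIs, 9 were at least 2-fold lower and 0 higher, with a median log2 fold of -1.86. Of all genes 5.26% were lower and 4.87% higher. Without the gated cells 8 of 10 were lower and 0 higher, with a median of -1.63. That stands beside 4.12% and 5.28% of all genes. Summed, the list stood at 1954 CPM in cKO PD, 5334 CPM in cHet PD, 1865 CPM in cKO control and 2381 CPM in cHet control, so cHet PD was the library that stood apart.

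Ifi205, an interferon-induced gene of a DNA-binding protein family, was detected in 6 of 81 cells of cKO PD and 22 of 47 of cHet PD. It stood at 22.1 CPM in cKO PD, 348 CPM in cHet PD, 24.4 CPM in cKO control and 0 CPM in cHet control, 15.8-fold lower in cKO PD than in cHet PD (interval 6.79 to 44.8). Rsad2, which encodes the antiviral enzyme viperin, stood at 36.9, 507, 12.2 and 67.7 CPM in the same order. In cHet PD 42.5% of its UMIs came from 1 cell, and 17 cells held it. Oasl1 stood at 77.4 CPM in cKO PD and 462 CPM in cHet PD, and was found in 13 and 24 cells.

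Rsad2 was not particular to monocytes. It was found in 19.8% of endothelium-like cells of cKO PD and 51.2% of those of cHet PD, at 225 and 1145 CPM. A gate of at least 5 UMIs over Ifit1, Ifit2, Ifit3, Isg15, Rsad2, Irf7 and Cxcl10 took 4 of 81 monocytes in cKO PD, 11 of 47 in cHet PD, 0 of 10 in cKO control and 2 of 10 in cHet control. After thinning it took 1 of 75 in cKO PD and 3 of 43 in cHet PD, counts too small to order the libraries.

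Genes of early activation, which tissue digestion can also raise, were lower in cKO PD in 14 of 32 cases and higher in 0, with a median log2 fold of -0.83. Of all genes 5.26% were lower and 4.87% higher. Without the gated cells 6 of 29 were lower and 2 higher, with a median of -0.47. That stands beside 4.12% and 5.28% of all genes, and the 2 higher are near that share. Fos, a part of the transcription factor AP-1, stood at 354 CPM in cKO PD, 982 CPM in cHet PD, 2060 CPM in cKO control and 1597 CPM in cHet control. Klf4, a transcription factor of monocyte development, stood at 273 CPM in cKO PD, 659 CPM in cHet PD, 1487 CPM in cKO control and 1109 CPM in cHet control. For both genes the PD libraries lay below the controls and cKO PD lowest. The heat shock genes Hspa1a and Hspa1b were 7.12-fold and 6.75-fold lower in cKO PD, but 1 cell of cHet PD held 77.0% and 74.5% of their UMIs, and without the top cell of each gene neither was called. The part of handling in these differences, and in the cytokine genes that share this early activation, was not tested.

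Cell cycle genes were higher in cKO PD. Of 14 with enough UMIs, 5 were at least 2-fold higher and 0 lower, with a median log2 fold of 0.83. Of all genes 4.87% were higher and 5.26% lower. Without the gated cells 5 of 14 were higher, with a median of 0.94, beside 5.28% of all genes. A gate of at least 2 UMIs over Mki67, Top2a, Cenpf, Birc5, Ube2c and Cdk1 took 27 of 81 monocytes of cKO PD, 7 of 47 of cHet PD, 2 of 10 of cKO control and 2 of 10 of cHet control. The shares in the PD libraries were 33.3% and 14.9%, and after thinning 14 of 75 and 3 of 43. All other cells of these libraries fell in the gate at 13.3% in cKO PD and 13.05% in cHet PD, close to each other.

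Ube2c, whose enzyme marks mitotic proteins for destruction, stood at 236 CPM in cKO PD, 63.3 CPM in cHet PD, 0 CPM in cKO control and 54.1 CPM in cHet control. In cHet PD 70.0% of its UMIs came from 1 cell and 2 cells held it, against 22 cells in cKO PD. Hmgb2, a chromatin protein gene that is high in dividing cells, stood at 1224 CPM in cKO PD, 488 CPM in cHet PD, 1073 CPM in cKO control and 1055 CPM in cHet control. Mki67, the classic proliferation marker, stood at 339, 190, 207 and 81.2 CPM and was not called between the PD libraries. For Hmgb2 the cHet PD library was the low one among the 4, and for Ube2c and Mki67 the cKO PD library was the high one.

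Among the 12 genes named as higher, which had to lie in at least 10% of cells and reach 0.2 of the CPM of the highest cell class, the linker histone genes H1f0 and H1f2 had the largest folds. H1f0 stood at 195 CPM in cKO PD, 25.3 CPM in cHet PD, 48.8 CPM in cKO control and 81.2 CPM in cHet control, 7.71-fold higher in cKO PD than in cHet PD (interval 2.84 to 29.3). H1f2 stood at 586 CPM in cKO PD, 133 CPM in cHet PD, 61.0 CPM in cKO control and 365 CPM in cHet control, 4.41-fold higher (2.79 to 7.32). H1f0 was found in 18 of 81 against 3 of 47 cells, and H1f2 in 44 of 81 against 9 of 47. H1f0 and H1f2 were called without the gated cells too, with log2 folds of 3.32 and 1.81.

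Other genes of the higher side had varied roles. Psmc6, a subunit of the proteasome, stood at 214 CPM in cKO PD, 50.7 CPM in cHet PD, 122 CPM in cKO control and 67.7 CPM in cHet control. Tnip3, which holds back NF-kB signalling, stood at 358, 95.02, 122 and 27.1 CPM, and was found in 49 of 81 cells of cKO PD and 11 of 47 of cHet PD. Tnfaip8, a gene induced by tumor necrosis factor, stood at 280, 88.7, 122 and 135 CPM.

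Lims1, which encodes the adaptor PINCH1 at integrin contacts, stood at 465 CPM in cKO PD, 152 CPM in cHet PD, 305 CPM in cKO control and 379 CPM in cHet control. Among these higher genes it was the one tied to integrins by its known role, and cHet PD was its lowest library. Smc4, a condensin subunit, stood at 299, 88.7, 378 and 325 CPM, with cHet PD again the low library. Aldh2, an aldehyde dehydrogenase, stood at 262, 82.4, 122 and 122 CPM, and Rdm1, a gene linked to DNA repair, at 214, 76.0, 12.2 and 0 CPM. Ube2c, Smc4 and Rdm1 were not called without the cycling cells or after thinning, nor was Rac2 after thinning.

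Rac2, the GTPase that switches on the oxidative burst and cell movement in blood cells, stood at 251 CPM in cKO PD, 82.4 CPM in cHet PD, 390 CPM in cKO control and 149 CPM in cHet control. Chil3, a chitinase-like gene of young monocytes, stood at 1364 CPM in cKO PD, 475 CPM in cHet PD, 317 CPM in cKO control and 487 CPM in cHet control. Neither was called once the gated cells were left out, with log2 folds of 0.99 for Rac2 and 0.78 for Chil3. Both calls thus rested in part on the Ly6c2-poor cells of cHet PD.

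**Figure D4:**
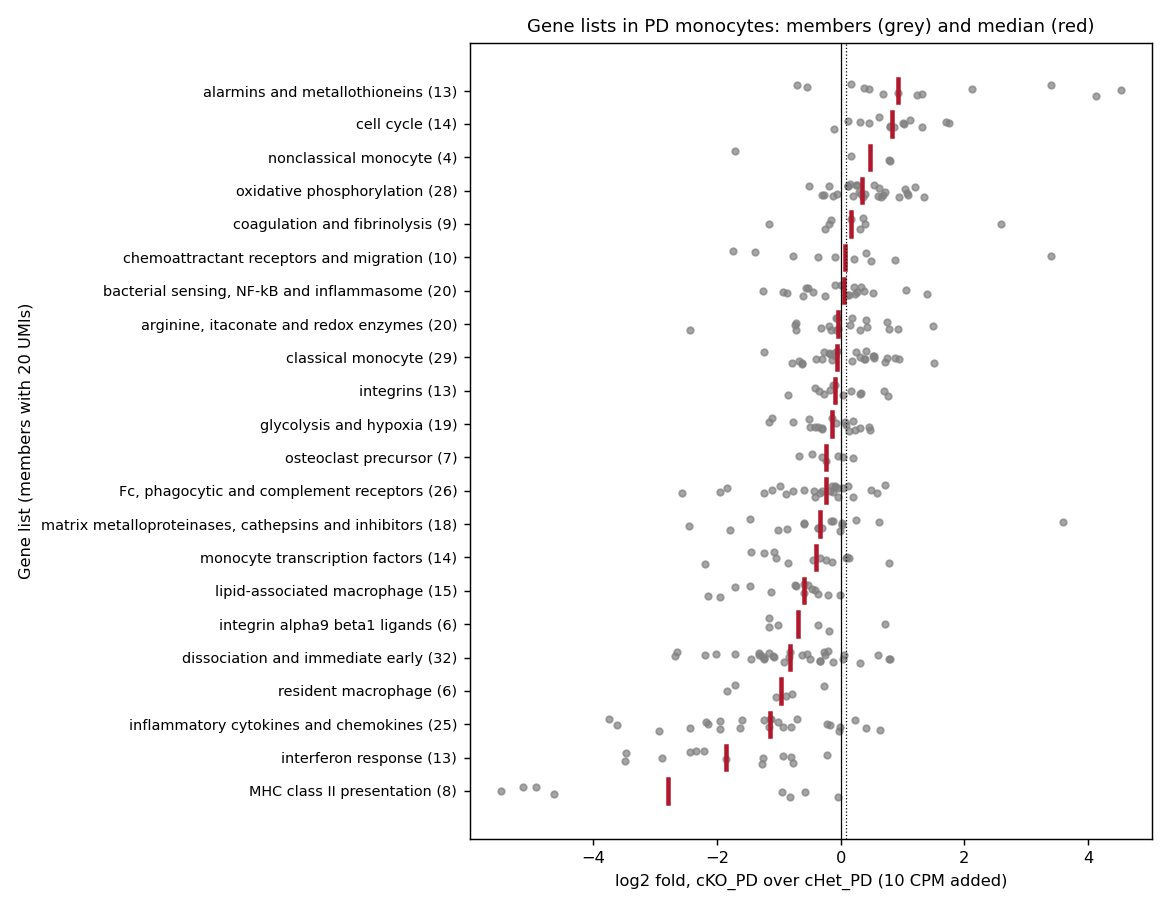
Log2 fold of cKO PD over cHet PD, with 10 CPM added, for the members of each gene list with at least 20 UMIs, 1 grey point per gene and the list's median as a red bar, and a dotted line at the median of all genes, 0.09. Cytokine and chemokine genes and interferon genes lie mostly below 0, with medians of -1.14 and -1.86, and cell cycle genes above it, with a median of 0.83.

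Alarmin genes were higher in cKO PD and rested on a small group of cells. S100a8 stood at 2728 CPM in cKO PD, 108 CPM in cHet PD, 61.0 CPM in cKO control and 176 CPM in cHet control, and S100a9 at 1276, 63.4, 61.0 and 40.6 CPM. Their proteins form calprotectin, which is abundant in neutrophils and present in Ly6c2-high monocytes. At least 10 UMIs of both genes together were held by 14 of 81 cells of cKO PD, 0 of 47 of cHet PD, 0 of 10 of cKO control and 1 of 10 of cHet control. The 0 of cHet PD allows a share of up to 6.38%. S100a8 was also found in 14.8% of fibroblast-like and 30.3% of keratinocyte-like cells of cKO PD, and in 12.1% and 43.1% of those of cHet PD, so single UMIs of it are no sign of expression.

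The 14 cells of cKO PD carried neutrophil transcripts beside those of monocytes. They held 98 of the 100 UMIs of Retnlg, a resistin-like gene of mature neutrophils, in 4 cells, and 66 of the 92 UMIs of Lcn2, a secondary granule gene, in 12 cells. Ly6c2 was present in all 14, at 3164 CPM against 2811 CPM in the other 67 monocytes. Other monocyte genes of the rule were found in fewer of them. F13a1 was in 8 of 14 against 64 of 67, Ms4a6c in 8 against 61, and Ccr2 in 6 against 47. Which cell type these 14 were was not tested. Fn1 stood at 1666 against 2967 CPM and Chil3 at 3019 against 1066 CPM. Doublets were not removed, and whether such barcodes held 1 cell or more was not tested.

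Of 13 alarmin and metallothionein genes 6 were at least 2-fold higher in cKO PD and 0 lower, beside 4.87% and 5.26% of all genes. Their median log2 fold was 0.93. With neither the gated cells nor the S100-rich cells, where 5.62% of all genes were at least 2-fold higher and 4.42% lower, 2 of 13 were higher and 1 lower, with a median of 0.24. Of 10 marker genes of mature neutrophils 3 were higher over all monocytes and 0 of 8 without those cells, where 0 of 8 were also lower. S100a8 and S100a9, which chose the S100-rich cells, belong to both lists. Part of the fall in both lists was thus set by that choice. The marker list summed to 9250 CPM in cKO PD, 5049 CPM in cHet PD, 561 CPM in cKO control and 1421 CPM in cHet control, and its part in the other differences between the PD libraries was not tested beyond leaving those cells out. Without both groups of cells, 11 of 23 cytokine and chemokine genes and 8 of 10 interferon genes were lower, and 0 of either were higher.

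Some receptors for antibody and debris were lower over all monocytes. Of 26 Fc, phagocytic and complement receptor genes 5 were at least 2-fold lower in cKO PD and 0 higher, beside 5.26% and 4.87% of all genes. Without the gated cells 2 of 21 were lower and 1 higher, beside 4.12% and 5.28% of all genes. The median log2 fold was then -0.06. Fcgr2b, the inhibitory Fc receptor, stood at 159 CPM in cKO PD, 982 CPM in cHet PD, 329 CPM in cKO control and 514 CPM in cHet control, 6.19-fold lower in cKO PD than in cHet PD (interval 4.39 to 8.90). In cHet PD it stood at 2140 CPM in gated against 162 CPM in other monocytes, and without gated cells its log2 fold was -0.01. Mrc1, the mannose receptor of macrophages, stood at 47.9 CPM in cKO PD and 196 CPM in cHet PD, and Apoe, the apolipoprotein of macrophages, at 66.4 and 241 CPM.

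Macrophage lists followed the same cells. Of 6 resident macrophage genes 3, and of 15 lipid-associated macrophage genes 5, were at least 2-fold lower in cKO PD and 0 higher. Of all genes 5.26% were lower and 4.87% higher. Without the gated cells 0 of 4 and 1 of 14 were lower, beside 4.12% of all genes. Basp1, a membrane protein gene not in these lists, was 7.38-fold lower (125 against 925 CPM, interval 5.05 to 11.1) and still lower without gated cells, at a log2 fold of -1.03, but not called once the S100-rich cells were left out as well, at -0.85. Its levels in the controls were 73.1 CPM in cKO and 13.5 CPM in cHet.

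Of 20 genes for sensing bacteria 2 were at least 2-fold higher and 1 lower, beside 4.87% and 5.26% of all genes, with a median log2 fold of 0.06. Cd14, the co-receptor for lipopolysaccharide, stood at 6127 CPM in cKO PD, 4238 CPM in cHet PD, 939 CPM in cKO control and 1028 CPM in cHet control. Tlr7, a sensor of RNA, was at 166 CPM in cKO PD and 57.0 CPM in cHet PD, Irak3, which dampens receptor signalling, at 247 and 114 CPM, and Tlr4, the receptor for lipopolysaccharide, at 36.9 and 101.4 CPM. Acod1, whose enzyme makes itaconate, stood at 2441 CPM in cKO PD, 2781 CPM in cHet PD, 0 CPM in cKO control and 94.7 CPM in cHet control. Cd14 and Acod1 were thus high in both PD libraries and low in both controls.

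Of 29 genes that define classical monocytes 1 was at least 2-fold higher in cKO PD, Chil3, and 1 lower, Klf4, with a median log2 fold of -0.06. These counts are near the 4.87% and 5.26% of all genes and are no result about the list. Fn1 stood at 2769 CPM in cKO PD, 1685 CPM in cHet PD, 195 CPM in cKO control and 3328 CPM in cHet control. Plac8 stood at 1486, 2299, 1451 and 1123 CPM. A list drawn up for ligands of integrin alpha9 beta1 also held Osm, the gene of oncostatin M, which is not a known ligand of it. Of its 6 genes with enough UMIs 3 were lower and 0 higher. They were Tgm2, the gene of tissue transglutaminase (173 CPM in cKO PD, 399 CPM in cHet PD), Vegfa, the gene of a vessel growth factor (136 and 317 CPM), and Osm (549 and 1121 CPM).

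Genes for proteases and energy use showed small counts. Of 18 genes for matrix metalloproteinases, cathepsins and their inhibitors 4 were lower and 1 higher, beside 5.26% and 4.87% of all genes. Without gated cells 1 of 18 was lower and 1 higher, beside 4.12% and 5.28% of all genes. Over all monocytes Mmp19 stood at 44.2 CPM in cKO PD and 285 CPM in cHet PD, and Lgmn, the gene of the lysosomal protease legumain, at 232 and 824 CPM. Of 28 oxidative phosphorylation genes 4 were higher in cKO PD and 0 lower, with a median log2 fold of 0.35, and without gated cells 1 of 26 was higher. Of 19 glycolysis and hypoxia genes 2 were lower and 0 higher, and without gated cells 0 of 18 were called in either direction. Of 7 osteoclast precursor genes 0 were called in either direction, and Csf1r stood at 446 CPM in cKO PD and 716 CPM in cHet PD.

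The control libraries held 10 monocytes each, so their genes were not counted and only values are given. Besides Cd14 and Acod1, Thbs1, the gene of the matrix protein thrombospondin 1, stood at 6979 CPM in cKO PD, 7906 CPM in cHet PD, 1377 CPM in cKO control and 3640 CPM in cHet control. Nonclassical genes summed to 730 CPM in cKO PD, 729 CPM in cHet PD, 4474 CPM in cKO control and 1055 CPM in cHet control. The cells of cKO control therefore differ in makeup from those they would be compared with, and the deposited depth floors differ between PD and control libraries.

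The monocytes were set beside the neighbouring myeloid cells, mainly in cHet PD. These are cells chosen by their genes, so the values describe and test nothing. Against the 51 C1q macrophages, monocytes stood at 2299 against 27.6 CPM for Plac8. They stood at 12.7 against 594 CPM for Ccl8, a chemokine gene of tissue macrophages, and at 12.7 against 322 CPM for Pf4. In cKO PD, which held 14 C1q macrophages, H2-Aa stood at 66.4 CPM in monocytes and 5592 CPM in C1q macrophages. In cHet PD it stood at 2306 CPM in monocytes and 4252 CPM in C1q macrophages. The class II transcripts were thus high in C1q macrophages of both PD libraries, and low in the monocytes of cKO PD.

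Against the 19 Arg1 macrophages of cHet PD, the monocytes stood at 824 against 47.2 CPM for Il10, at 19.0 against 1898 CPM for Fabp4, a fatty acid carrier, and at 38.0 against 2335 CPM for Mmp12, the elastase of macrophages. Those macrophages also carried 12050 CPM of the keratin gene Krt10, against 462 CPM in monocytes. In cKO PD the monocytes and the 23 Arg1 macrophages lay closer together, and the largest fold by which a named gene was higher in monocytes was 3.94, for Clec4a2 (interval 1.70 to 11.2). In cHet PD it was 30.1, for Arl5c, against 1 UMI (5.18 to 1209). Ly6c2 stood at 2865 CPM in monocytes and 2813 CPM in Arg1 macrophages of cKO PD, while in cHet PD it stood at 1698 and 342 CPM. Against the 333 mature neutrophils of cHet PD, monocytes stood at 1685 against 27.2 CPM for Fn1, at 3338 against 98.8 CPM for Ctss, a lysosomal protease, and at 108 against 16004 CPM for S100a8. Cxcr2, the chemokine receptor of neutrophils, was at 0 CPM in those monocytes and 1109 CPM in the neutrophils.

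**Figure D5:**
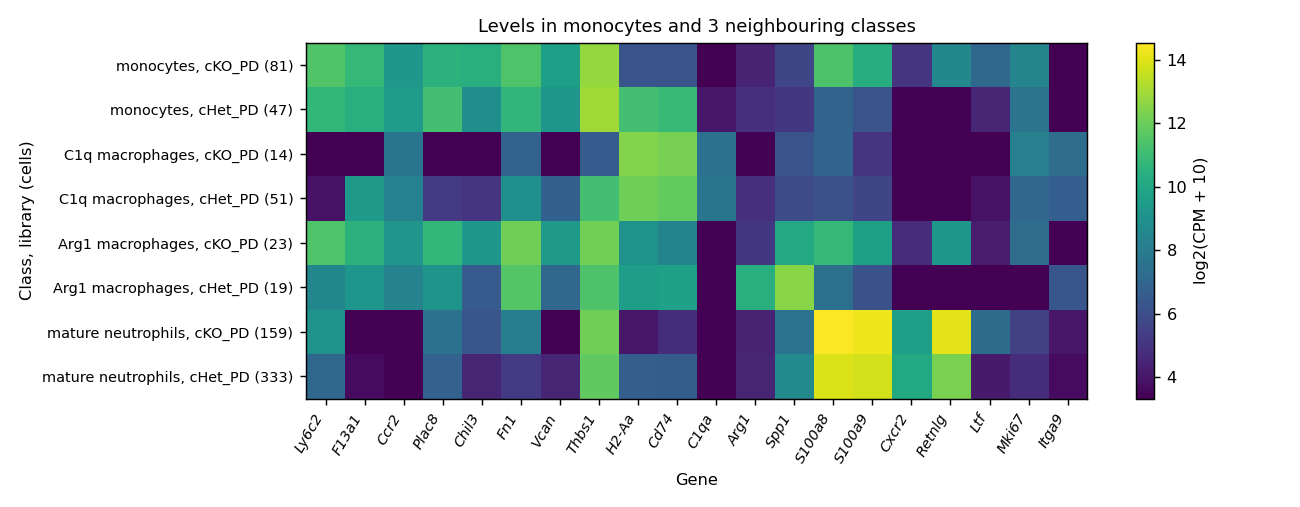
Levels of marker genes, from Ly6c2 to Itga9, in monocytes, C1q macrophages, Arg1 macrophages and mature neutrophils of cKO PD and cHet PD, with colour for log2 of CPM plus 10. Monocytes carry Ly6c2 (2865 CPM in cKO PD, 1698 CPM in cHet PD) and hold 0 UMIs of Itga9 in both PD libraries.

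Markers of other cell types varied in level. The lymphocyte genes Cd3d, Trbc2, Cd4, Cd8a, Ncr1 and Klrb1c were at 0 in both PD libraries. The list of T and NK cell genes summed to 221 CPM in cKO PD, 792 CPM in cHet PD, 12.2 CPM in cKO control and 176 CPM in cHet control, and it holds Ccl5, described above. Keratinocyte genes summed to 2776 CPM in cKO PD, 2255 CPM in cHet PD, 2645 CPM in cKO control and 1488 CPM in cHet control. A gate of at least 5 UMIs over 8 keratin genes outside the rule took 9 of 81 monocytes in cKO PD, 14 of 47 in cHet PD, 7 of 10 in cKO control and 7 of 10 in cHet control. With cells thinned it took 2 of 75, 3 of 43, 0 of 10 and 0 of 10, and among all other cells of the libraries 63.6%, 76.0%, 95.6% and 96.7%. Keratinocyte transcripts were thus present in monocytes of all 4 libraries. Cells in this gate were left out together with those in primary-granule, mature neutrophil, dendritic and lymphocyte gates. That left 61 monocytes in cKO PD and 32 in cHet PD, with 134 of 2463 genes higher and 134 lower. The 24 genes named for the PD libraries kept their calls. The part of keratinocyte transcripts alone was not tested. Dendritic cell genes summed to 84.8 CPM in cKO PD, 196 CPM in cHet PD, 853 CPM in cKO control and 907 CPM in cHet control, and a gate of 2 UMIs over Flt3, Cd209a, Xcr1, Clec9a, Zbtb46 and Ccr7 took 1 of 81, 2 of 47, 2 of 10 and 5 of 10 cells.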

How the data were processed

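UMI counts for every gene and barcode were deposited by the authors. The submitters' processing notes name fastp, STARsolo 2.7.10a and the build mm10. Per the labels' protocols, gingiva was digested with enzymes, stained for live cells and made into BD Rhapsody 3′ libraries, although another label says 10x Genomics. Barcodes with at least 200 genes and at most 20% mitochondrial UMIs were kept, and doublets were not removed.

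The UMIs of all monocytes of a library were added up and scaled to CPM. Shares have exact binomial (Clopper-Pearson) intervals, CPM exact Poisson intervals and ratios exact conditional binomial intervals, all at 95%. Named genes were the 12 largest called folds each way with at least 50 UMIs, in at least 10% of cells of the higher library and at least 0.2 of the highest class's CPM, without mitochondrial, ribosomal, hemoglobin, sex-linked or unnamed genes, plus the rule's genes and list members. For a list, up to 4 members of largest difference and 2 of highest level were open to naming, and others named here were chosen after their values were seen. The members and lists were chosen with earlier results of these data known. Fibroblast-like, endothelium-like and keratinocyte-like cells held no Ptprc, Lyz2 or Tyrobp UMIs and at least 10, 3 and 10 UMIs of their own markers.

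Python 3.11.15, numpy 2.4.6, scipy 1.17.1, pandas 2.3.3 and matplotlib 3.10.9 were used, with edgeR 4.0.16 in R 4.3.3 for TMM scaling only. Alternatives covered scaling, filters, depth, mitochondrial share, thinning and subsets of cells. Leaving out MHC class II gated cells, S100-rich cells, single caps or the top cell of a gene, and counting over Ptprc cells, was chosen after seeing the data.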

Additional observations from a re-analysis of the deposited data

Results flagged for a closer look

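For 4 of the named genes outside the rule, PD over control had opposite signs in the 2 genotypes with counting intervals that exclude 1 in both. Other named genes had opposite signs without that, among them H1f0 at 1.81 in cKO and -1.37 in cHet, and F13a1, a gene of the rule, had 1.13 and -0.50. The difference between genotypes was not tested, since each group is 1 library and the control libraries hold 10 monocytes each. H1f2 had a log2 fold of 3.07 for cKO PD over cKO control and -1.39 for cHet PD over cHet control. Hspa1a had -3.60 in cKO and 0.69 in cHet, and Hspa1b -3.37 in cKO and 1.51 in cHet. For both heat shock genes most UMIs of cHet PD came from 1 cell, at 77.0% and 74.5%. Fcgr2b had -1.01 in cKO and 0.92 in cHet, and its UMIs in cHet PD lay mostly in the cells rich in MHC class II transcripts.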

How the results depend on the processing

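No paired analysis was possible because a group had 1 library only. Of 384 gene results for cKO PD over cHet PD under other settings, 357 kept their call, 22 lost it and 5 reversed. The settings with at least 50 UMIs and with no UMI filter could not change a named gene, since naming already needed 50 UMIs. Each of these settings gives 24 of the kept calls, and those calls show nothing about robustness. The 5 were H2-Aa at 0.027 and Cd74 at 0.19 without MHC class II gated cells, and H2-Aa at 0.16, Cd74 at 0.37 and Fcgr2b at 0.048 without those and S100-rich cells. The 164 higher and 177 lower of 3365 genes became 63 and 100 of 3365 with 50 CPM added. They became 73 and 90 of 1587 with at least 50 UMIs, and 260 and 304 of 11301 with no UMI filter. With cells thinned to 1000 UMIs they became 59 and 72 of 1117. Of these thinned calls, 26 higher and 47 lower genes were also called as reported. Without cycling cells 106 of 2223 were higher. The higher genes' share of calls was 48.1%, 38.7% with 50 CPM added, and 56.2% without MHC class II gated cells. The MHC class II median was -4.78 with at least 50 UMIs, -1.42 with no filter, -3.91 thinned, -4.01 without cycling cells, -4.08 without cells of the other-cell gates and -4.41 without the top 5% of cells by depth. The interferon median was -1.20 with 50 CPM added, -1.09 with at least 50 UMIs and -0.67 thinned. The cell cycle median was 1.65 without the top 5% of cells, and the alarmin median 0.24 without gated and S100-rich cells.

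The log2 share ratio of cKO PD over cHet PD was 1.84 without gated cells, 2.61 without the granule cap and 0.48 without the C1q cap. That of cHet PD over cHet control was 0.62 without the granule cap and -0.54 over Ptprc cells. That of cKO PD over cKO control was 5.71 when cells were thinned before the rule, 1.60 without the C1q cap and 0.76 over Ptprc cells. Cycling cells were 18.7% of cKO PD monocytes after thinning. Cells with Fn1 and Vcan were 70.7% of cKO PD after thinning, 91.0% at the control libraries' UMI floor and 90.3% with at least 5 monocyte-gene UMIs, and 32.6% of cHet PD after thinning. Cells with Plac8 and Chil3 were 50.7% of cKO PD after thinning, 92.5% at that floor, and 51.2% of cHet PD after thinning. Leaving out a replicate was not possible with 1 library per group. The 10 cells of each control library limit every value given for them.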
